A study of Mus musculus with 12 samples.

Results

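The nuclear genes for the subunits of the mitochondrial respiratory chain and ATP synthase were followed across 12 samples labelled as ventricle. Members were the genes whose symbol in the FPKM table begins with Ndufa, Ndufab, Ndufb, Ndufc, Ndufs or Ndufv, is Sdha to Sdhd or Cyc1, or begins with Uqcr, Cox4 to Cox8 or Atp5. Names of assembly factors (Ndufaf) and of loci ending in -ps were left out. This gave 89 genes of the 23660 in that table, of which 40 belong to complex I, 4 to complex II, 10 to complex III, 18 to complex IV and 17 to complex V by their symbols.

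The chain lies in the inner membrane of mitochondria. Complexes I and II take electrons from NADH and succinate, complex III passes them through cytochrome c to complex IV, which reduces oxygen, and the proton gradient built on the way drives ATP synthase (complex V). Most subunits are encoded in the nucleus and imported, while a small core is encoded in mitochondrial DNA. Heart muscle is among the tissues richest in these complexes, and several subunits of complex IV have a second form made by a paralogous gene with its own tissue or oxygen dependence.

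The samples came from male wild-type C57BL/6J mice of 6 to 8 weeks, per the labels, in 4 groups of 3. In MI (myocardial infarction) the left anterior descending coronary artery was tied off with a suture. Fer-1+MI mice were given ferrostatin-1 at 1 mg/kg per day and Lip-1+MI mice liproxstatin-1 at 3 mg/kg per day, each starting 24 h before ligation. Both compounds trap lipid radicals and block ferroptosis, a form of cell death driven by iron and lipid peroxidation, and the design asks what ligation and each inhibitor change. Sham is labelled as the sham group, without details of what was done to it. The region of ventricle taken, the time from ligation to collection and whether a sample is 1 animal are not stated in those sources, so p-values reflect only how far these samples differ, which may be technical.

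Total counts were 45.5 to 60.8 M per sample. Every gene identifier has the rat prefix of Ensembl, against a label of mouse, and no source used here names the build. Of 14 heart muscle markers 13 were found, with Myh6 at a mean of 1234 FPKM and Actc1 at 5246 FPKM, but Mb (myoglobin) at 23.8 and Ckm (muscle creatine kinase) at 40.9 FPKM. Col1a1 (fibroblast collagen) averaged 1883 FPKM and Acta2 (smooth muscle actin) 1141 FPKM. Such low Mb and Ckm beside high Col1a1 and Acta2 are unusual for adult ventricle, and whether the tissue was as labelled was not tested. The heart muscle markers summed to 12895 to 13518 FPKM in Sham and 11507 to 12790 in MI. In Fer-1+MI the sum was 11296 to 12896 and in Lip-1+MI 11470 to 13046, with Actc1 its largest part. FPKM are fragments scaled for gene length and depth, used here to compare genes with each other, while CPM are counts relative to library size after scaling by the trimmed mean of M values (TMM), used to compare samples.

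In level, the subunits spanned a wide range. The highest was Atp5f1b, the catalytic beta subunit of ATP synthase, with a mean over the 12 samples of 791 FPKM. Complex IV was led by Cox4i1, a regulatory subunit, at 491 FPKM and Cox6a2, the heart and muscle form of subunit 6a, at 474 FPKM. Complex I was led by Ndufa4, a small protein first assigned to complex I and now known in complex IV, at 227 FPKM. Complex III was led by the hinge protein Uqcrh at 238 FPKM, and its lowest member was the chromosome 7 copy of Uqcrb at 20.7 FPKM. The other row of Uqcrb, on chromosome 1, was at 98.6 FPKM. The members of complex II lay close together, from 102 FPKM for the iron-sulfur subunit Sdhb to 140 FPKM for the membrane anchor Sdhd. The lowest of complex V was Atp5md at 15.9 FPKM.

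Some heart and muscle forms were low. Cox7a1, the heart and muscle form of subunit 7a, averaged 0.109 FPKM, with 0 to 16 counts per library. Cox8b, the heart and muscle form of subunit 8 in rodents, averaged 14.8 FPKM against 267 FPKM for its general form Cox8a. By contrast Cox6a2 exceeded its general form Cox6a1 (302 FPKM). Both Cox7b2, a paralog of Cox7b with 0 to 1 count per library, and the Ndufs6 row, annotated as a processed pseudogene with 0 to 8 counts, fell below the filter on low counts, so 87 of 89 members were tested.

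The levels varied little between samples. The coefficient of variation over all 12 samples had a median of 5.95% over the 87 tested members. The most variable members were Cox7a1 (47.0%), the chromosome 6 copy of Ndufa10l1 (38.4%), Cox4i2 (31.1%) and the chromosome 13 copy of Ndufv3 (31.0%). Ndufa1, an accessory subunit of complex I, ranged from 6.39 CPM in Fer-1+MI replicate 3 to 26.5 CPM in MI replicate 1. The symbols Cox6b1, Ndufa10l1, Uqcrb and Ndufv3 each stand on 2 rows, and reads of such copies can be split between them, so these 8 rows are uncertain. Gene models of 20 members overlap another gene.

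Ligation moved most subunits by little. Against Sham, 20 of 87 members were higher and 1 was lower in MI in edgeR's quasi-likelihood test at a Benjamini-Hochberg adjusted p under 0.05, and 66 were not called. That is 24.1% of members, against 43.6% of all 16910 genes tested, of which 22.8% were higher and 20.8% lower. The members' median log2 fold change was 0.09 against -0.0044 over all genes. The 3 MI samples lay wholly above the 3 Sham samples in 34 members and wholly below in 5, against 27.1% and 26.7% of all genes. The count of higher members was 13 without Sham replicate 1 or 3 and 12, with 3 lower, without MI replicate 1. In bulk RNA, fewer cells of a type and less RNA per cell cannot be told apart.

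The direction of these small differences depended on the scaling between libraries. TMM factors were 1.08 to 1.09 in Sham and 0.959 to 0.991 in the ligated groups. With library size as the only scaling, 2 members were higher and 14 lower in MI, or 2.3% and 16.1%, against 14.3% and 35.1% of all genes. Their median was -0.07 where that of all genes was -0.17. The members' median stood 0.09 above that of all genes under either scaling. That agreement was fixed in advance, since a change of scaling moves all genes alike. With limma on log2(FPKM + 1) the members' median stood 0.043 above that of all genes. With no filter on low FPKM the difference was -0.035, so its direction depended on the filter. Without scaling the members made up 1.32% ± 0.02 of all counts in Sham, 1.26% ± 0.04 in MI, 1.24% ± 0.04 in Fer-1+MI and 1.22% ± 0.04 in Lip-1+MI (SD, n = 3). After TMM scaling their sum was 12126 ± 216 CPM in Sham and 12983 ± 379 CPM in MI, the reverse order. Counts on the mitochondrial chromosome made up 6.45 to 7.06% in Sham and 5.11 to 5.54% in MI, and leaving them out of library size gave 2 higher and 18 lower.

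**Figure D1:**
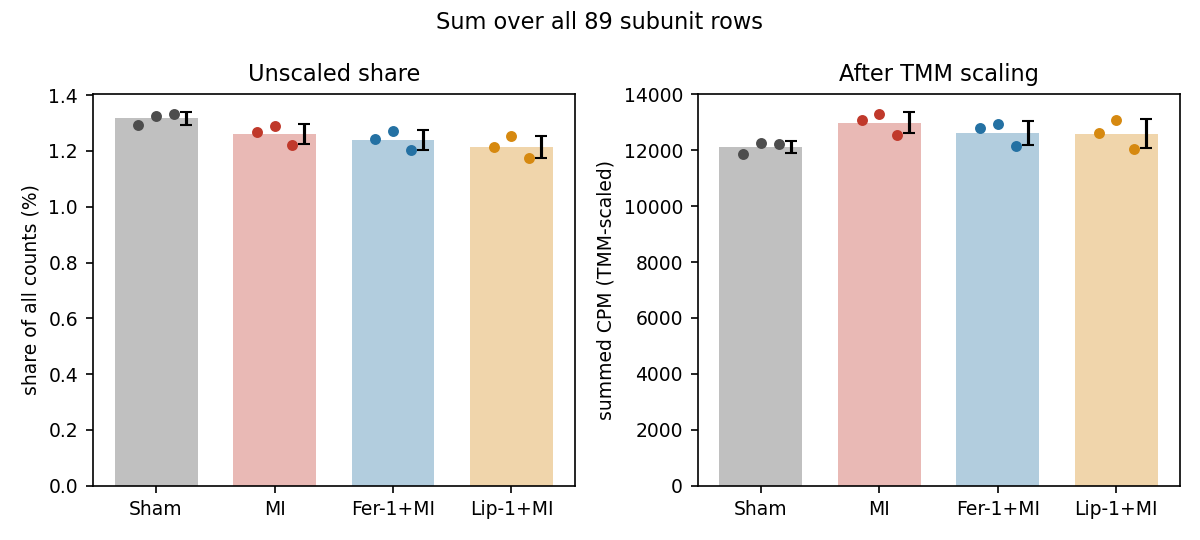
Sum over the 89 subunit genes in each sample, as a share of all counts (left, %) and as TMM-scaled CPM (right); points are samples, bars are means and error bars SD of 3 samples. The Sham mean of 1.32% is the highest on the left and the Sham mean of 12126 CPM the lowest on the right.

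**Figure D2:**
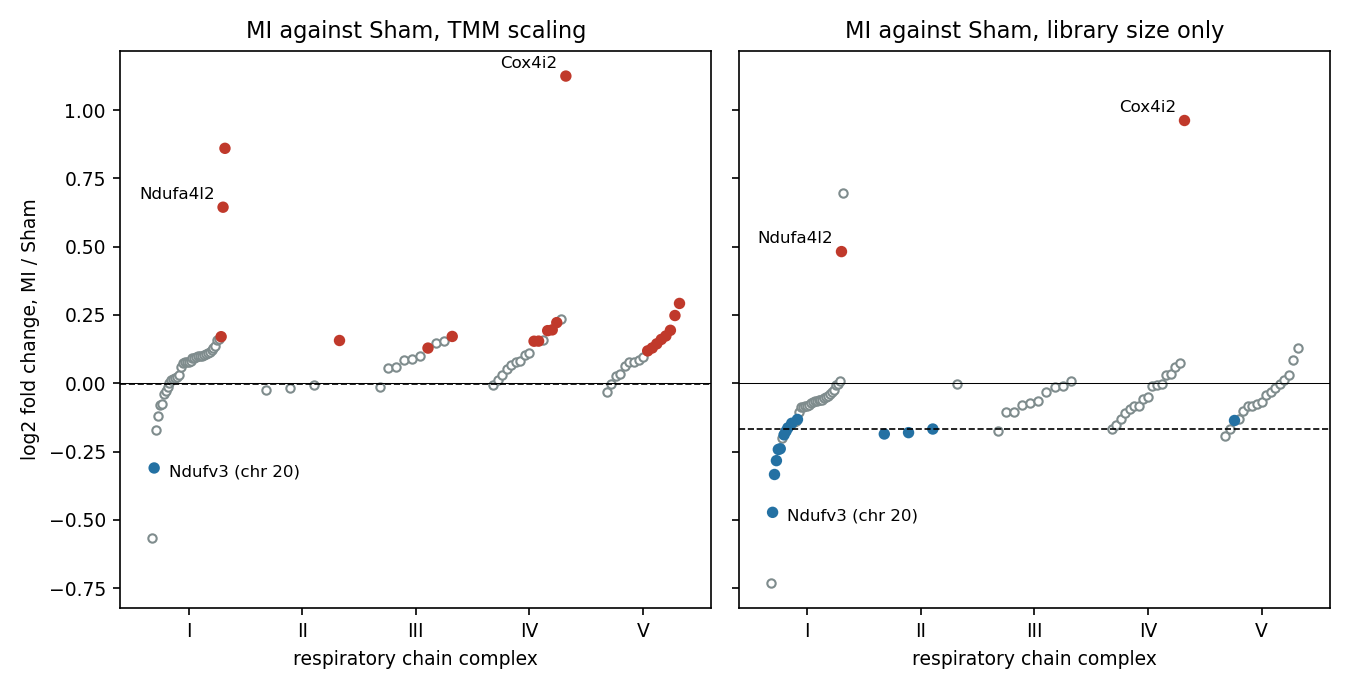
Log2 fold change of MI over Sham for each tested subunit, by complex, under TMM scaling (left) and library size only (right). Red and blue points passed the adjusted p threshold upward and downward, open points did not, and the dashed line is the median of all genes, -0.17 on the right; Cox4i2, Ndufa4l2 and Ndufv3 (chr 20) keep their direction in both.

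The 3 members called in the same direction under every scaling and with every single library left out were Cox4i2, Ndufa4l2 and the chromosome 20 copy of Ndufv3. Cox4i2 is the second form of cytochrome c oxidase subunit 4, known to be induced at low oxygen in mammalian cells. In the files it lies on chromosome 3 from 148234193 to 148245416, plus strand. It was at 8.57, 7.14 and 7.66 CPM in Sham and at 15.6, 16.7 and 18.7 CPM in MI. All MI samples were above all Sham samples, and the log2 fold change was 1.12 ± 0.10 (SE, edgeR adjusted p = 3.4e-08).

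Ndufa4l2 is a paralog of Ndufa4 known as a target of the hypoxia-inducible factor HIF-1. It lies on chromosome 7 from 70821957 to 70824085, plus strand, in the files. Its levels were 6.88, 6.17 and 6.37 CPM in Sham and 9.28, 11.3 and 9.68 CPM in MI. The groups did not overlap, with a log2 fold change of 0.64 ± 0.11 (SE, edgeR adjusted p = 0.00013). Hif1a, which encodes the oxygen-regulated subunit of HIF-1, went from 164 ± 5.9 CPM in Sham to 256 ± 9.8 CPM in MI (log2 fold change 0.64 ± 0.05, edgeR adjusted p = 4.2e-09). This is a level of RNA and not of HIF-1 activity. Whether HIF-1 had a part in the level of Ndufa4l2 was not tested.

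Ndufv3, an accessory subunit of the NADH-binding module of complex I, was the only member called lower in MI under TMM scaling. Its chromosome 20 row, from 10265806 to 10275304 on the plus strand, read 66.2, 67.6 and 71.2 CPM in Sham and 50.8, 55.7 and 58.9 CPM in MI. The highest MI sample was below the lowest Sham sample, and the log2 fold change was -0.31 ± 0.06 (SE, edgeR adjusted p = 0.00023). The second Ndufv3 row, on chromosome 13, was at 0.914 ± 0.147 CPM in Sham and 0.614 ± 0.130 CPM in MI and was not called (edgeR adjusted p = 0.24).

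Cox4i2 and Ndufa4l2 are also known from vascular mural cells (pericytes and smooth muscle). Of 8 mural markers, 7 were higher in MI than in Sham and none was lower in edgeR at the same threshold, and 5 and 1 when only library size was used. Among all 16910 genes the shares were 22.8% and 20.8%, or 14.3% and 35.1% under the second scaling. Their summed level was 1402 to 1504 FPKM in Sham, 2170 to 2343 in MI, 1708 to 1717 in Fer-1+MI and 1940 to 2203 in Lip-1+MI, and no listed marker was at 0. Tagln (transgelin) went from 371 ± 27 to 1062 ± 50 CPM and Rgs5, a pericyte marker, from 13.0 ± 0.55 to 15.6 ± 0.45 CPM between Sham and MI. Markers of other cell types differed as well. Of 13 heart muscle markers 2 were higher and 3 lower in MI, or none and 6 with library size only. Myh6 averaged 1573 FPKM in Sham and 1048 in MI, and Actc1 4992 and 5402. Of 9 fibroblast markers 4 were higher and 3 lower in MI, with a summed level of 3329 to 3458 FPKM in Sham and 3734 to 4202 in MI. Of 7 epicardial and mesothelial markers 6 were higher and none lower, at 48.4 to 51.8 FPKM in Sham and 67.4 to 71.1 in MI. Of 10 macrophage and monocyte markers 6 were higher and 2 lower, with overlapping sums, and of 4 erythroid markers 3 were lower. Of 9 endothelial markers 2 were higher and 2 lower, and none of the markers of these types was at 0. With library size only, 2 endothelial markers were higher and 6 lower in MI. Under that scaling the counts were 4 and 3 for fibroblast markers and 5 and 1 for epicardial and mesothelial markers. For macrophage and monocyte markers they were 5 and 2, and for erythroid markers none and 3. The part of cell composition in the values of Cox4i2 and Ndufa4l2 was not tested.

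**Figure D3:**
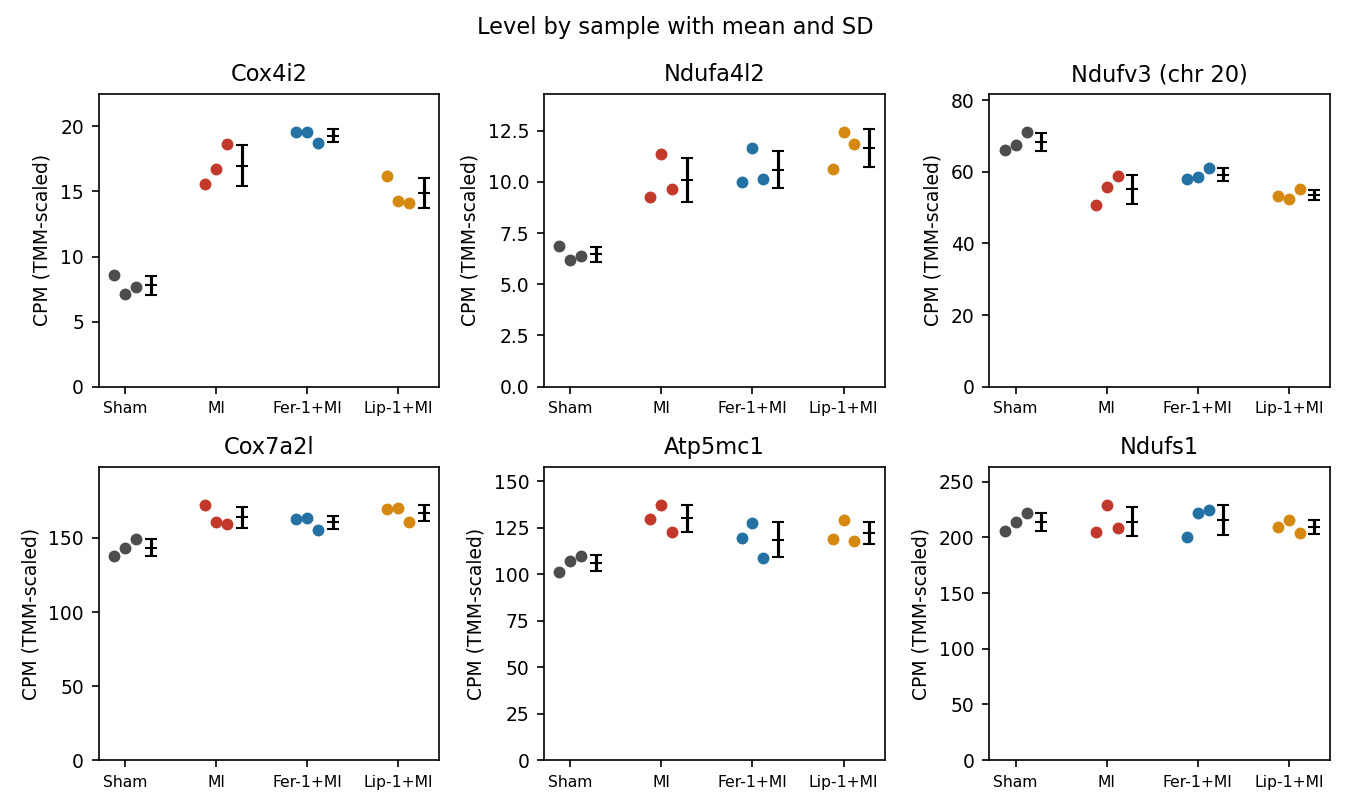
TMM-scaled CPM of 6 subunits in each sample, with the mean and SD of 3 samples beside the points. Cox4i2 and Ndufa4l2 are lowest in the 3 Sham samples, Ndufv3 (chr 20) is highest there, and Ndufs1 shows overlapping groups.

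The other calls after ligation were under 0.3 on the log2 scale except one and held under TMM scaling but not with library size only. Within complex I, 3 of 39 members were higher and 1 lower, or 7.69% and 2.56%, against 22.8% and 20.8% of all genes. The higher ones included Ndufab1, the mitochondrial acyl carrier protein, at 66.4 ± 3.3 CPM in Sham and 74.7 ± 1.9 CPM in MI. The chromosome 6 copy of Ndufa10l1 had the largest estimate in complex I, 0.86 ± 0.29 (SE, edgeR adjusted p = 0.023). Its levels were low, at 1.58, 2.34 and 1.75 CPM in Sham and 3.38, 4.76 and 2.11 CPM in MI, and the groups overlapped. Its gene model overlaps another on the same strand with a mean of 20.7 CPM, against 2.44 CPM for this copy. The call was lost without Sham replicate 1, Sham replicate 3 or MI replicate 2. The chromosome 9 copy of Ndufa10l1 was not called and averaged 46.6 FPKM over all samples, against 1.1 FPKM for the chromosome 6 copy. The 75 kDa core subunit Ndufs1 was at 214 ± 8.0 CPM in Sham and 214 ± 13 CPM in MI, with no detectable difference (edgeR adjusted p = 0.99).

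In complex II, 1 of 4 members was higher in MI, the iron-sulfur subunit Sdhb at 106 ± 4.1 and 119 ± 7.2 CPM in Sham and MI, with overlapping samples. With library size only, the other 3 (Sdha, Sdhc, Sdhd) were lower instead, by 0.17 to 0.19 on the log2 scale. Complex III had 2 of 10 members higher, the core proteins Uqcrc1 and Uqcrc2. The shares of members higher were 25% in complex II and 20% in complex III, near the 22.8% of all genes. Uqcrc1 was at 215, 219 and 215 CPM in Sham and at 241, 237 and 232 CPM in MI, and Uqcrc2 at 274, 267 and 288 CPM against 306, 332 and 296 CPM. Neither pair of groups overlapped, with log2 fold changes of 0.13 ± 0.04 and 0.17 ± 0.05 (SE, edgeR adjusted p = 0.015 and 0.011).

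Complex IV had 6 of 17 members higher, or 35.3% against 22.8% of all genes. Besides Cox4i2 these were Cox5a, Cox5b, Cox7c, Cox7a2l and the chromosome 1 copy of Cox6b1. Cox7a2l was at 138, 143 and 149 CPM in Sham and at 172, 161 and 159 CPM in MI (log2 fold change 0.19 ± 0.05, edgeR adjusted p = 0.0024). Cox6b1 (chr 1), a subunit facing the intermembrane space, went from 232 ± 3.9 to 271 ± 8.0 CPM. Both sets of MI samples lay above Sham. With library size only neither was called, at 0.03 and 0.06 on the log2 scale.

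In ATP synthase 8 of 17 members were called, all higher, or 47.1% against 43.6% of all genes called in either direction and 22.8% called higher. Atp5mc1 and Atp5mc2, which encode the same c-ring protein with different import signals, led. Atp5mc1 was at 101, 107 and 110.0 CPM in Sham and at 130.0, 137 and 123 CPM in MI, and Atp5mc2 at 215, 229 and 221 CPM against 288, 258 and 244 CPM. The groups did not overlap for either gene, with log2 fold changes of 0.29 ± 0.06 and 0.25 ± 0.05 (SE, edgeR adjusted p = 0.00058 and 0.00086). Atp5pd, of the peripheral stalk, rose from 219 ± 5.4 to 251 ± 14 CPM and Atp5f1b from 1509 ± 28 to 1686 ± 78 CPM. Atp5if1, the inhibitor that binds ATP synthase when the gradient collapses, was at 105 ± 6.7 and 110 ± 5.9 CPM and was not called. With library size only, ATP synthase had no member higher and 1 lower, Atp5f1a, the catalytic alpha subunit.

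With library size only, 10 of 39 members of complex I (25.6%) and 3 of 4 of complex II were lower, while complexes III and IV had none lower. Over all genes 35.1% were lower under that scaling, a larger share than in complex I. The lower members of complex I were Ndufv3 (chr 20), Ndufa3, Ndufs5, Ndufb10, Ndufb4, Ndufs3, Ndufa2, Ndufs1, Ndufa5 and Ndufa8. Differences between complexes were not tested.

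**Figure D4:**
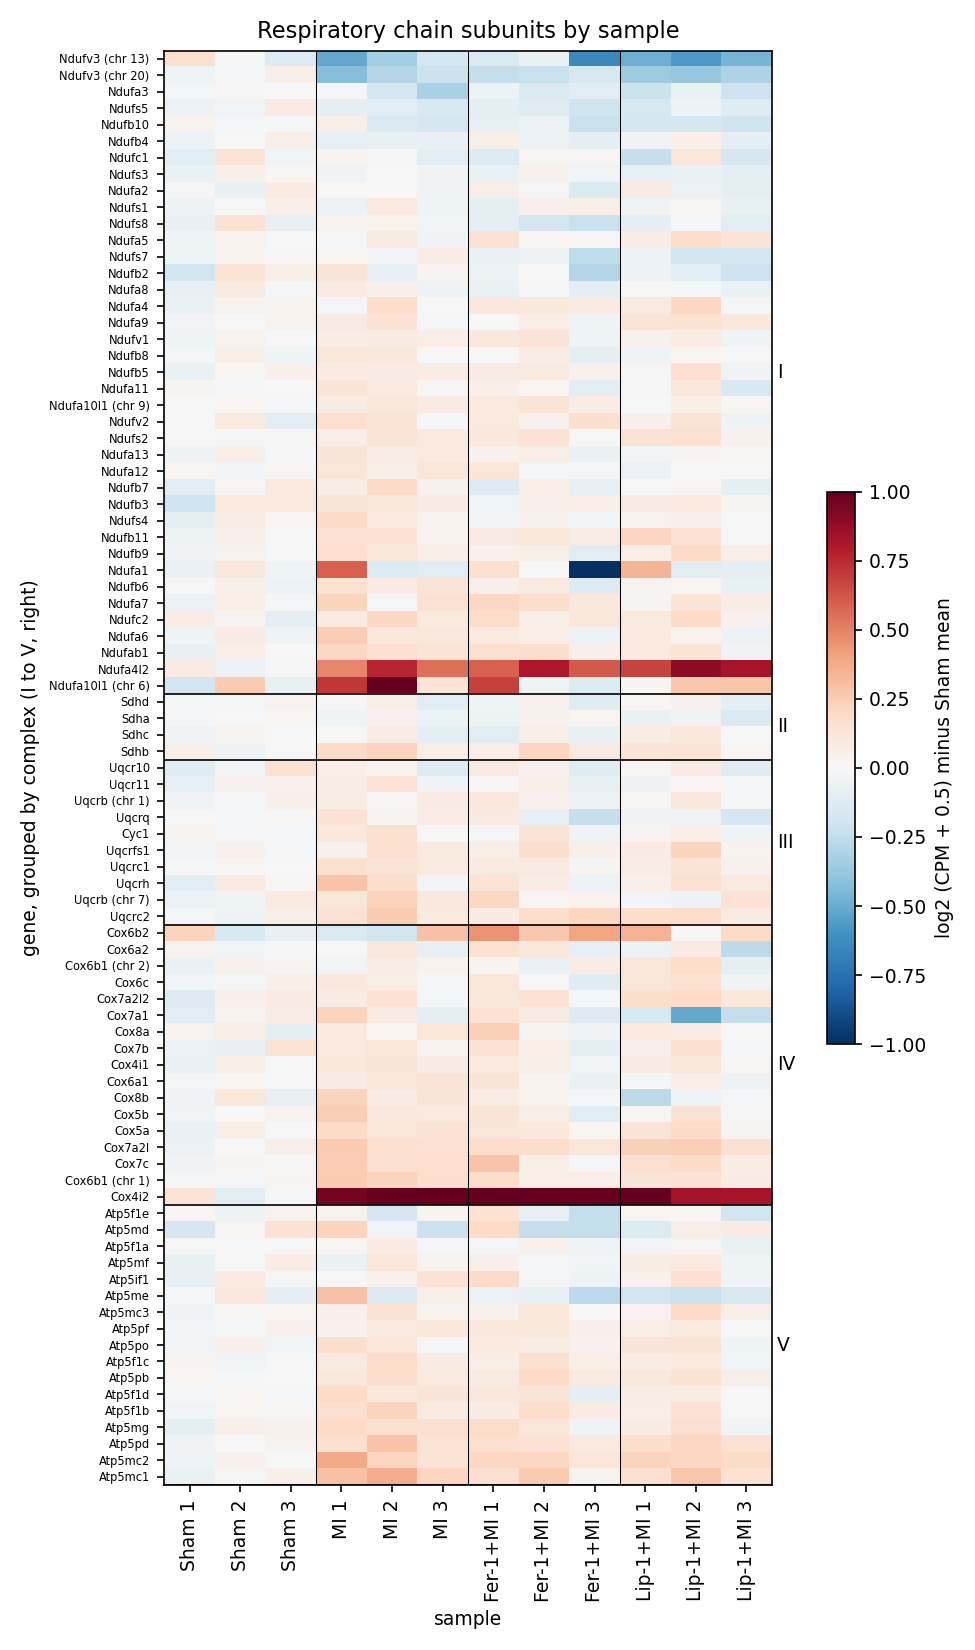
Log2 (CPM + 0.5) of each of the 87 tested subunits in each sample minus its Sham mean, TMM-scaled, with genes in rows by complex I to V and samples in columns. Most rows stay near the Sham mean, and Cox4i2 and Ndufa4l2 are red in all 9 ligated samples.

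The ratio of each second form of a subunit to its partner was compared among the 4 groups. A ratio within a sample does not depend on the scaling between libraries. The log2 ratios of FPKM + 0.1 were computed for 5 pairs, with exact permutation tests adjusted over the 5 and run over all 369600 assignments of the samples, for which the smallest possible p is 6.5e-05. Cox4i2 amounted to 1.38% of Cox4i1 in Sham, 2.78% in MI, 3.31% in Fer-1+MI and 2.5% in Lip-1+MI. The log2 ratio ran from -6.36 to -5.97 in Sham and from -5.28 to -5.01 in MI, with every ligated sample above every Sham sample. Ndufa4l2 amounted to 2.80% of Ndufa4 in Sham, 4.17% in MI, 4.25% in Fer-1+MI and 4.70% in Lip-1+MI. The partners Cox4i1 and Ndufa4 were not called in MI against Sham, at log2 fold changes of 0.10 and 0.06. Both ratios therefore restate the differences of Cox4i2 and Ndufa4l2 in the same samples. These pairs were among the 5 tested, but their ratios are given only as a description, without p-values.

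The heart and general forms did not differ detectably in their ratios. Each test took all 4 groups at once, not MI against Sham alone. Cox6a2 stood at 161% of Cox6a1 in Sham, 150% in MI, 164% in Fer-1+MI and 152% in Lip-1+MI (exact permutation adjusted p = 0.26). Cox8b stood at 5.71% of Cox8a in Sham, 6.03% in MI, 5.55% in Fer-1+MI and 5.07% in Lip-1+MI (exact permutation adjusted p = 0.16). Cox6b2, the testis form, stood at 1.07% of Cox6b1 in Sham, 0.925% in MI, 1.36% in Fer-1+MI and 1.16% in Lip-1+MI. Its exact permutation adjusted p was 0.16, and 0.038 without MI replicate 3. The pair of Cox7a1 and Cox7a2 was not analysed here because no row has the symbol Cox7a2.

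**Figure D5:**
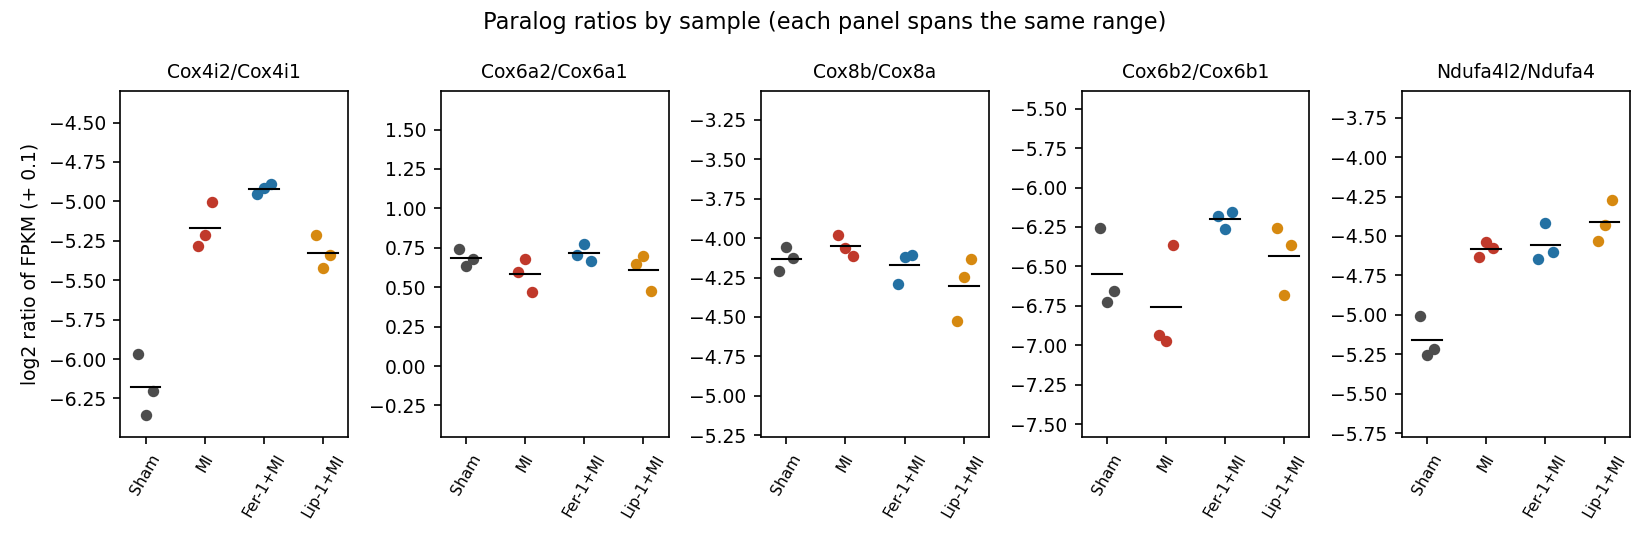
Log2 ratio of FPKM (+ 0.1) of the second form to its partner in each sample for 5 pairs; points are samples, lines are group means, and all panels span the same range. Cox4i2/Cox4i1 and Ndufa4l2/Ndufa4 lie lower in all 3 Sham samples than in the 9 ligated ones, and in the other 3 pairs Sham and MI overlap.

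Neither compound was followed by a detectable difference in any subunit against MI. Fer-1+MI against MI gave 0 of 87 members called in edgeR and 0 in DESeq2, against 5.36% of all genes (2.29% higher, 3.07% lower), with 10 members at an unadjusted p under 0.05. Lip-1+MI against MI gave 0 of 87 in both tools, against 6.10% of all genes (3.05% in each direction), with 9 members at an unadjusted p under 0.05. The median log2 fold changes were -0.04 and -0.05. The 95% interval lay within 0.3 of 0 on the log2 scale for 75 of 87 members with Fer-1 and 73 with Lip-1, and its median half-width was 0.12. Without Fer-1+MI replicate 1, 2 members were lower with Fer-1, and without MI replicate 2, 1 was lower with either compound. The intervals are of single genes and do not show that the groups were alike.

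The 3 members called under every scaling in MI also stood apart from Sham with either compound. With Fer-1 the Cox4i2 samples read 19.6, 19.5 and 18.7 CPM, and with Lip-1 they read 16.2, 14.2 and 14.1 CPM. Against MI its log2 fold change was 0.18 (95% interval -0.01 to 0.38) with Fer-1 and -0.19 (-0.39 to 0.01) with Lip-1. With Fer-1 Ndufa4l2 read 10, 11.7 and 10.1 CPM, and with Lip-1 10.6, 12.5 and 11.8 CPM, with intervals against MI of -0.16 to 0.30 and -0.03 to 0.43. Ndufv3 (chr 20) was at 57.9, 58.6 and 61.2 CPM and at 53.4, 52.3 and 55.1 CPM, with intervals of -0.02 to 0.22 and -0.16 to 0.08. All values of Cox4i2 and Ndufa4l2 in both groups were above Sham, and all values of Ndufv3 (chr 20) below it.

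The ligated groups with a compound were also set against the Sham samples, which all these comparisons share. Fer-1+MI had 8 higher and 1 lower, or 10.3% against 36.3% of all genes, and Lip-1+MI 10 higher and 2 lower, or 13.8% against 38.8%. The log2 fold changes were 1.31 ± 0.10 and 0.93 ± 0.10 for Cox4i2, 0.71 ± 0.11 and 0.85 ± 0.11 for Ndufa4l2, and -0.21 ± 0.06 and -0.35 ± 0.06 for Ndufv3 (chr 20) in that order (SE). Other members called higher in both were Uqcrc2, Cox7a2l, Atp5pd, Atp5mc1 and Atp5mc2, at 0.13 to 0.22. Ndufb10, an accessory subunit of complex I, was lower in Lip-1+MI only by threshold, at 86.0 ± 1.8 CPM in Sham and 75.7 ± 0.87 CPM in Lip-1+MI. With library size only, 2 members were higher in each, against 11.7% and 11.8% of all genes. Under that scaling 26 were lower with Fer-1 and 35 with Lip-1, or 29.9% and 40.2%, against 31.5% and 34.9% of all genes. The higher members numbered 4 to 5 with Fer-1 without Sham replicate 1 or 2 or Fer-1+MI replicate 2, and 5 to 6 with Lip-1 without Sham replicate 1 or 2 or Lip-1+MI replicate 1 or 2. Over all 4 groups, 10 of 87 members were called, against 44.3% of all genes.

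The compounds were given at different doses, so a difference between them is also one of dose. Between Lip-1+MI and Fer-1+MI, 1 of 87 members was called, against 3.15% of all genes, of which 1.41% were lower. Cox4i2 was lower in Lip-1+MI, at 14.9 ± 1.2 against 19.3 ± 0.48 CPM, with no overlap (log2 fold change -0.38 ± 0.09, edgeR adjusted p = 0.033). The adjusted p rose to between 0.073 and 0.14 when any 1 Fer-1+MI sample, or Lip-1+MI replicate 2 or 3, was left out. Cell type markers differed between the same groups. Of 9 endothelial markers 3 were lower in Lip-1+MI, with a summed level of 54.5 to 64.6 FPKM against 68.7 to 73.9 in Fer-1+MI. Of 13 heart muscle markers 3 were lower and of 9 fibroblast markers 2, while of 8 mural markers 2 were higher, and their part in the value of Cox4i2 was not tested. For 77 of 87 members the 95% interval lay within 0.3 of 0 on the log2 scale.

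The subunits encoded in mitochondrial DNA were mostly lower after ligation, when 11 of 13 were lower and none higher, with a median log2 fold change of -0.50. With library size only 12 were lower. Over all genes 20.8% were lower, or 35.1% with library size only. Mt-nd1, a core membrane subunit of complex I, went from 2802 ± 119 CPM in Sham to 1530 ± 131 CPM in MI (log2 fold change -0.87 ± 0.06, edgeR adjusted p = 2.3e-09). Against MI, 8 of 13 were higher with Fer-1 and 2 with Lip-1, under both scalings. Over all genes the shares were 2.29% and 3.05% under TMM scaling and 2.79% and 2.8% with library size only. Against Sham under TMM scaling, 6 of 13 were lower and 2 higher in Fer-1+MI, against 16.7% and 19.6% of all genes. In Lip-1+MI 10 were lower and 1 higher, against 18% and 20.8%. Mt-nd6 went from 432 ± 44 CPM in MI to 613 ± 85 CPM in Fer-1+MI (edgeR adjusted p = 0.022), and Mt-co1, the catalytic core of complex IV, from 22220 ± 1230 CPM to 28001 ± 1480 CPM in Lip-1+MI (edgeR adjusted p = 0.00059). The libraries were made from poly(A) RNA, and how that selection acts on mitochondrial transcripts in these samples was not tested.

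Assembly factors build the complexes without staying in them. After ligation 2 of 48 were higher and 14 lower, or 33.3% called against 43.6% of all genes, with a median log2 fold change of -0.13. Scaled by library size alone, 2 rose past the threshold and 29 fell, the latter 60.4% of the list, against 35.1% of all genes. Higd1a, a hypoxia-induced factor of complex IV, rose from 66.1 ± 4.8 to 152 ± 3.4 CPM (log2 fold change 1.20 ± 0.05, edgeR adjusted p = 3.0e-12), and stood at 152 ± 6.6 CPM in Fer-1+MI and 158 ± 2.7 CPM in Lip-1+MI. Coa4, a factor of complex IV, fell from 9.73 ± 0.63 to 5.77 ± 0.42 CPM, and Atpaf1, a factor of ATP synthase, from 24.8 ± 1.6 to 15.7 ± 3.4 CPM.

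Among 17 genes for mobile electron carriers and coenzyme Q synthesis, 3 were higher and 4 lower after ligation, or 41.2% called against 43.6% of all genes. With library size only none was higher and 8 (47.1%) were lower, against 14.3% and 35.1% of all genes. Coq8a, a kinase-like protein of coenzyme Q synthesis, fell from 32.4 ± 1.9 to 16.9 ± 1.2 CPM (log2 fold change -0.94 ± 0.08, edgeR adjusted p = 2.7e-08). Its level was 24.3 ± 1.7 CPM in Fer-1+MI and 15.6 ± 0.56 CPM in Lip-1+MI, higher than in MI with Fer-1 (edgeR adjusted p = 0.00052) and not called against MI with Lip-1. Between Lip-1+MI and Fer-1+MI it differed by -0.63 ± 0.08 (SE, edgeR adjusted p = 0.00012). Cycs, cytochrome c itself, was at 336 ± 9.8 and 374 ± 8.9 CPM in Sham and MI.

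Of 16 genes of the citric acid cycle, which feeds the chain, 8 were higher and none lower after ligation, and 2 and 2 when only library size was used. Over all genes the shares were 22.8% higher and 20.8% lower, or 14.3% and 35.1% with library size only. Pdha1, of the pyruvate dehydrogenase that supplies the cycle, rose from 430.0 ± 6.0 to 571 ± 18 CPM. Idh2, mitochondrial isocitrate dehydrogenase, was at 278 ± 16 CPM in MI and 235 ± 12 CPM in Lip-1+MI (log2 fold change -0.24 ± 0.05, edgeR adjusted p = 0.0083). In 22 genes of the mitochondrial ribosome and translation, 4 were higher and 2 lower after ligation, or none and 11 with library size only.

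Transcriptional regulators of mitochondrial genes moved in both directions, with 9 of 21 higher and 3 lower after ligation and 6 and 6 with library size only. Over all genes 22.8% were higher and 20.8% lower, or 14.3% and 35.1% with library size only. Esrrb, an estrogen-related nuclear receptor, had the largest rise, from 2.1 ± 0.74 to 5.32 ± 0.72 CPM (log2 fold change 1.35 ± 0.28, edgeR adjusted p = 0.0010). Ppard, a receptor that drives fatty acid oxidation genes, rose from 47.0 ± 2.1 to 90.5 ± 5.7 CPM. Ppargc1a, the coactivator PGC-1alpha, fell from 14.6 ± 2.1 to 10.9 ± 0.67 CPM, while its relative Ppargc1b rose from 24.4 ± 1.9 to 34.6 ± 6.1 CPM.

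What the members share in sequence was looked at in mouse promoters, from 250 bases before to 50 after each start site, from RefSeq on GRCm38.p6. Of 85 member symbols 67 matched that table by symbol or RefSeq synonym. The letters of 3 short motifs were searched on both strands: CATGCGC, the core bound by NRF1, a nuclear factor known to act on respiratory genes, ATGGCGG, the core bound by YY1, and ACGTG, the core of the hypoxia response element. The motifs were picked with the values above known. CATGCGC was in 13 of 67 member genes, or 19.4%, against 4.41% of all 27025 genes with a window. ATGGCGG was in 10, or 14.9%, against 4.69%. ACGTG was in 17, or 25.4%, against 21.8%. The 13 genes were Uqcrc1, Uqcr11, Sdhb, Cox5b, Cox6a1, Atp5mc2, Atp5me, Atp5mg, Ndufa6, Ndufa8, Ndufa11, Ndufb6 and Ndufb8. A match is a string of letters and not a measured binding site, and Cox4i2 and Ndufa4l2 have no entry in the table.

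Uqcrc1 and Atp5mc2 are shown because they carry CATGCGC on both strands, overlapping by 4 bases, and were among the members higher in MI under TMM scaling. The Uqcrc1 window is chr9:108936398-108936697 on the plus strand and the Atp5mc2 window chr15:102670998-102671297 on the minus strand, both 5′ to 3′ on GRCm38.p6, with the overlapping matches in capitals. They begin at base 31 after the start site in Uqcrc1 and 42 bases before it in Atp5mc2.
Uqcrc1: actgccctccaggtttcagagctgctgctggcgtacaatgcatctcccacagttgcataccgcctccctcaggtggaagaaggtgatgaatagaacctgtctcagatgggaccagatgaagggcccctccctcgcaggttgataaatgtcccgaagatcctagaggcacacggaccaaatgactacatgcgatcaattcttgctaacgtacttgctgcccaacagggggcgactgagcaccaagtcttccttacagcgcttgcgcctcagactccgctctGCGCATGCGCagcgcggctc
Atp5mc2: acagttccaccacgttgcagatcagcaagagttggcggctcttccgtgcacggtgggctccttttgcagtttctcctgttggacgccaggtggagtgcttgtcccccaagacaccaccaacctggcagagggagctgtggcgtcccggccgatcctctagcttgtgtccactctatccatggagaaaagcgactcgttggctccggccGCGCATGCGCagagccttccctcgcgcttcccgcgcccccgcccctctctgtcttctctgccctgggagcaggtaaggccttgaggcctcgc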

How the data were processed

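Poly(A) RNA libraries of 12 samples labelled as ventricle (RNA integrity number over 7, paired reads of 150 bp) were sequenced, per the labels' protocols. The authors deposited a table of whole-number counts per gene, not normalised, and a table of FPKM, which the authors scaled to gene length and depth. Per the submitters' processing notes, the tools were HISAT2 2.2.1, StringTie 2.1.6, cutadapt 1.9, FastQC, edgeR and DESeq2; no source used here names the build or the strand setting. Symbols and coordinates come from the deposited FPKM table and were joined to counts by identifier.

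Genes passing edgeR's filterByExpr (minimum count 10, minimum total 15) were scaled by TMM and tested in 1 fit of all 12 samples in 4 groups with edgeR 4.0.16 (R 4.3.3), robust quasi-likelihood, and p-values adjusted by Benjamini-Hochberg across the 16910 genes (threshold 0.05). Values are mean ± SD of 3 samples in CPM, and fold changes are log2 ± SE. Levels between genes use FPKM, and paralog ratios use log2 of FPKM + 0.1. Alternatives were DESeq2 1.42.0, RLE and library-size scaling, other filters, limma 3.58.1 on log2 FPKM, a replicate block and leaving out each sample. In simulated counts of 16910 genes for MI against Sham, 72% of 100 genes changed by 0.5 on the log2 scale were recovered. Of 100 changed by 1, 99% were recovered, and there were 13 false calls among the unchanged genes. The changes were set equally up and down, so the choice of scaling was not tested. Changes under 0.3, the size of most member calls, were not simulated. Libraries of a group differed by more than sampling noise. The named members are the 6 largest called rises and falls per comparison, the paralog pairs, Cox7a2l, Atp5if1 and the highest and lowest of each complex, and per comparison the 2 largest rises and falls of the other pathway lists. Other named genes were chosen after their values were seen. Members and lists were chosen with earlier results of these data known.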

Additional observations from a re-analysis of the deposited data

Results flagged for a closer look

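Cox4i2 differed between the groups given a compound after the same ligation: its log2 fold change of Lip-1+MI against Fer-1+MI was -0.38 (edgeR adjusted p = 0.033), the only such difference among 87 subunits. All 3 Lip-1+MI samples were below all 3 Fer-1+MI samples. Of 9 endothelial markers 3, of 13 heart muscle markers 3 and of 9 fibroblast markers 2 were also lower in Lip-1+MI, and 2 of 8 mural markers higher, whose part was not tested. The doses differed, and the adjusted p was above 0.05 without any 1 of 5 samples.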

How the results depend on the processing

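With RLE factors or DESeq2 the same 21 calls in MI against Sham were made. Library size only and FPKM turned the medians against Sham from above to below 0, while RLE and DESeq2 kept them above 0. Counts of higher and of lower members and their median log2 fold change against Sham follow, for MI, then with Fer-1, then with Lip-1. Library size only gave 2, 14 and -0.072, then 2, 26 and -0.11, then 2, 35 and -0.12, with 27 called over all groups. Limma on log2(FPKM + 1) gave 2, 13 and -0.062, then 2, 19 and -0.090, then 2, 28 and -0.10, with 20 over all groups. Limma on log2(FPKM + 0.1) gave 2, 13 and -0.066, then 2, 18 and -0.10, then 2, 28 and -0.10, with 20. Limma with no filter gave 2, 10 and -0.061, then 2, 13 and -0.089, then 2, 21 and -0.10, with 17, and 0 lower in Lip-1+MI against Fer-1+MI. Library size outside the mitochondrial chromosome, chosen after seeing the data, gave 2, 18 and -0.094, then 2, 31 and -0.12, then 2, 40 and -0.13, with 31. Cox6b1 (chr 1) in Lip-1+MI against Sham became -0.050 with library size only, -0.025 with FPKM + 1, -0.026 with FPKM + 0.1 and -0.060 outside the mitochondrial chromosome, where Cox4i1 was -0.11 in Fer-1+MI and in Lip-1+MI, and Cox6a1 -0.12 in Fer-1+MI.

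A minimum count of 50 and the replicate block each gave 2 lower in Fer-1+MI against Sham. After removal of group means, same-numbered samples of different groups correlated at -0.02 to 0.09 (median 0.014). Differently numbered ones correlated at -0.07 to 0.05 (median -0.009). For 9 of 12 samples the correlation was highest with samples of their own number. Nothing in the labels says that a number marks a shared animal or day, so the numbers were not taken as pairs. The replicate block gave 24 higher and 1 lower in MI against Sham. Without shared symbols, 0 were lower in MI, 0 with Fer-1 and 1 with Lip-1 against Sham.

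Leaving out 1 sample gave 12 to 21 higher, 1 to 3 lower and medians of 0.07 to 0.10 in MI against Sham (13 higher without Sham 1 or Sham 3, 12 higher and 3 lower without MI 1), 4 to 11 higher, 1 to 2 lower and 0.011 to 0.078 in Fer-1+MI against Sham, and 5 to 13 higher, 1 to 3 lower and 0.02 to 0.09 in Lip-1+MI against Sham. Against MI, 0 to 2 were lower with Fer-1 (medians -0.06 to -0.01) and 0 to 1 with Lip-1 (medians -0.07 to -0.02). Lip-1+MI against Fer-1+MI gave 0 to 1 lower and medians of -0.04 to 0.03, and all groups 8 to 14. Adjusted p of the paralog ratios ran from 0.18 to 0.44 for Cox6a2/Cox6a1, 0.038 to 0.31 for Cox6b2/Cox6b1 and 0.082 to 0.31 for Cox8b/Cox8a. The cause of these changes was not tested.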
